A study of Mus musculus with 9 samples.

Results

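RNA of 10 genes of the interstitial matrix was followed in mouse spermatogonial stem cells and in 2 kinds of induced pluripotent stem cells (iPSC). The genes were chosen by name. Col1a1, Col1a2, Col3a1, Col5a1 and Col6a1 encode chains of interstitial collagens, Dcn and Lum small leucine-rich proteoglycans, Thy1 a surface antigen, Postn a matricellular protein and S100a4 a small calcium-binding protein. Each was located by the chromosome, start and end of its locus in the deposited table against GRCm38 gene coordinates. All 10 were found among the 13384 genes to which 20052 of the 54913 loci could be assigned. Col1a1 and Col6a1 had 3 loci each and Col1a2 had 2, and for these the locus with the highest mean over the 9 libraries was used. The levels, folds and shares of these genes depend on this choice.

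The RNA-seq data comprise 9 libraries, 3 per group. SSC were uncultured cells of mouse pup testis enriched magnetically for the surface marker Gfra1, SSCiPSC were iPSC obtained from such cells, and fiPSC were iPSC obtained from fibroblasts of single male fetuses. Cells of all 3 groups carry the same alleles, an rtTA*M2 transactivator at the Gt(ROSA)26Sor locus and a doxycycline-responsive cassette of Pou5f1, Sox2, Klf4 and Myc at the Col1a1 locus. Col1a1 RNA made by these cells thus comes from cells with this insertion, whereas that of any carried-over feeder cells need not. The lines were clonal, were purified for SSEA1 before RNA extraction to lower the amount of feeder cells, and are labelled passages 10 to 11 in medium with LIF and DOX, whereas the methods give a later passage and withdrawal of doxycycline. The kind of feeder cell is not given in the sources used here, and neither is which lines came from the same animal, so that p-values measure only the spread between these libraries.

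Interstitial collagens are secreted by fibroblasts and related mesenchymal cells. Their chains wind around each other into a triple helix in which glycine recurs at a fixed spacing. Prolyl and lysyl hydroxylases and the chaperone Serpinh1 act on collagen in the endoplasmic reticulum, and the trimmed molecules are later joined into fibrils by lysyl oxidases. Types I, III and V share fibrils, type VI forms beaded filaments, and decorin and lumican bind to fibril surfaces. Pluripotent cells are usually grown on a layer of fibroblasts, so that RNA of these genes in an iPSC library can come from the cells themselves or from cells carried over. Fewer fibroblasts and less RNA per cell cannot be told apart in such bulk libraries.

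The repeat that defines the 5 collagen genes is shown by the first 20 glycine triplets of the longest unbroken run in each coding sequence (GENCODE M21 transcripts on GRCm38, 5′ to 3′, sense strand). The GGN glycine codon that opens each triplet is in capitals, and other glycine codons are not:
Col1a1: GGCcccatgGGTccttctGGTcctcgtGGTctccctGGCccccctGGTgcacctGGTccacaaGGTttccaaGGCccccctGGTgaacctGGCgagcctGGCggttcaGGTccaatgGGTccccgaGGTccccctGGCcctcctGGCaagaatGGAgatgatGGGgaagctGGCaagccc
Col1a2: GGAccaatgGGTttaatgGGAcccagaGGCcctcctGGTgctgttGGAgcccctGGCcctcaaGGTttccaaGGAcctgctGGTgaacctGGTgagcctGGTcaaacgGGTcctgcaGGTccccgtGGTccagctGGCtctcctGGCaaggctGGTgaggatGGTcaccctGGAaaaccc
Col3a1: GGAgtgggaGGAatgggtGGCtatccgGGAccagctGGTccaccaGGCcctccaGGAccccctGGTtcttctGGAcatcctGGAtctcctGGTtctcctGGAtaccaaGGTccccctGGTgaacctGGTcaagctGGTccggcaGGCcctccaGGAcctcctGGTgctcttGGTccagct
Col5a1: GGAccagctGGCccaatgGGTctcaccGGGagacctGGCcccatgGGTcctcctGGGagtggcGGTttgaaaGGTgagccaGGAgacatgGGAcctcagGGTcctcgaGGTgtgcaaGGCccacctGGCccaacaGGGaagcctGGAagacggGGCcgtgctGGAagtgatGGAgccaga
Col6a1: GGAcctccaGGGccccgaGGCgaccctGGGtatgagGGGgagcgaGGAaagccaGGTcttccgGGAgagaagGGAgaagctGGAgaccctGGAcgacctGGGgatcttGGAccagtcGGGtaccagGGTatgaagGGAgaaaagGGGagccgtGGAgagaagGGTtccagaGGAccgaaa
The unbroken run held 338 triplets in Col1a1, 339 in Col1a2, 344 in Col3a1 and 338 in Col5a1, which is 69.7%, 74.1%, 70.4% and 55.1% of their codons. In Col6a1 it held 87 triplets, or 25.4% of the codons. Despite the shared repeat, no word of 50 bases in the reference transcripts of Col1a1, Col1a2, Col5a1 or Col6a1 occurred in a transcript of another gene, and 1.67% of the words of Col3a1 did (in Gm47302). The same was true of Dcn, Lum, Thy1 and Postn, with no shared word. S100a4 is the exception, since 56.3% of its words also stand in Gm42674, whose gene overlaps the same locus, and its values are therefore uncertain.

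Upstream sequences are shown for the members with a TATAAA motif, a promoter feature that the choice of genes did not use. RefSeq promoters of GRCm38.p6 were found for 6 members, Col1a2, Col3a1, Col5a1, Col6a1, Postn and S100a4. Searched on the transcribed strand of the 250 bases before the start, TATAAA stood in 3 of these 6 and in 7.59% of 32851 promoters. The 3 are Col3a1 (chr1:45311288-45311537), Postn (chr3:54360857-54361106) and S100a4 (chr3:90603520-90603769), all on the plus strand, with the motif in capitals:
Col3a1: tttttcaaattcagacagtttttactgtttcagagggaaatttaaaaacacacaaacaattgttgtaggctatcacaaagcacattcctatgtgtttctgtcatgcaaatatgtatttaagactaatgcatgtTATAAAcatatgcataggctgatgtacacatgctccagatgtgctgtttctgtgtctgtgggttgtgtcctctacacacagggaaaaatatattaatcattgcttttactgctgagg
Postn: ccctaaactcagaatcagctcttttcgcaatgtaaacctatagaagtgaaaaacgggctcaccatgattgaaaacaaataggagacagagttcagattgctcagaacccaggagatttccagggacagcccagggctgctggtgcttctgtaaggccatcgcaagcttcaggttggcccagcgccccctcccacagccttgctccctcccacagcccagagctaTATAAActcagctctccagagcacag
S100a4: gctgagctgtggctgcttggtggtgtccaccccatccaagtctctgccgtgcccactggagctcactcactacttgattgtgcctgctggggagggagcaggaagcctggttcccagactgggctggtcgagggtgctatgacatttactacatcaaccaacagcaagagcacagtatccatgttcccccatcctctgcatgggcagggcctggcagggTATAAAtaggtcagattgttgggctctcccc
The motif began 117 bases before the start of Col3a1, 26 before that of Postn and 31 before that of S100a4. CCAAT on either strand stood in the window of Col1a2, 1 of 6, against 33.8% of all promoters, and GGGCGG on either strand in those of Col1a2 and Col5a1, 2 of 6, against 32.7%. A match is a description of the sequence and names no bound factor.

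Depth differed between SSC and iPSC. Values were in FPKM, a number of fragments scaled to transcript length and library size. From the smallest steps between values, the SSC libraries were estimated to hold 1770000, 4620000 and 1380000 fragments, those of SSCiPSC 15800000, 13700000 and 15000000 and those of fiPSC 13300000, 17600000 and 15400000. A level of 0 was given to 29.98%, 18.9% and 35.4% of the loci in the SSC libraries and to between 9.64% and 13.9% in iPSC. FPKM is scaled to transcript length, so levels are compared between genes below on this scale only.

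The labels of the cells were first set against their defining genes. Nanog, a pluripotency factor, stood at 483, 456 and 426 FPKM in SSCiPSC and at 279, 270 and 295 in fiPSC, and at 0 in each SSC library. Gfra1, the receptor used in the sort, had 37.7, 34.1 and 23.9 FPKM in SSC, and its highest iPSC value was 0.171. The SSC libraries also held RNA of testis somatic cells. Of 8 Sertoli genes looked up, 7 had a locus, and their summed level was 1300, 1410 and 1190 FPKM in SSC, led by Clu. Of 7 Leydig genes, 5 had a locus, with sums of 332, 209 and 495 FPKM led by Star (read from a short locus with no strand, so that its level is uncertain), and of 7 genes of peritubular myoid cells 5 had a locus, with sums of 108, 103 and 98.6 FPKM led by Acta2. In the iPSC libraries Fshr and Cst12 of the Sertoli list and Lhcgr and Nr5a1 of the Leydig list were at 0 in all 6.

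All 10 matrix genes were detected in both kinds of iPSC, at 0.403 to 14.1 FPKM, and no difference between fiPSC and SSCiPSC passed the test. Relative to SSC, 6 of the 10 were lower in each kind of iPSC (Col1a1, Col1a2, Col3a1, Col5a1, Col6a1 and Dcn), by 5.06 to 25.4 times in group means, whereas Lum, Thy1, Postn and S100a4 did not pass the test. Without SSC replicate 3, which was high for most of the 10, these folds were 2.88 to 13.3, and the 6 genes still passed. The level of the whole group varied 3.94 times among the 6 iPSC libraries, or 2.12 times without fiPSC replicate 2, with overlapping ranges in SSCiPSC and fiPSC.

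The fibril-forming chains Col3a1 and Col1a2 were the most abundant of the 10 by mean in iPSC. Col3a1, the single chain of type III collagen (chr1:45311440-45349194, plus strand), had 32.6, 27.4 and 95.9 FPKM in SSC replicates 1, 2 and 3, 9.20, 6.61 and 11.6 in SSCiPSC and 10.2, 2.93 and 14.1 in fiPSC. Col1a2, the second chain of type I collagen (chr6:4537667-4541582, plus strand), had 33.2, 31.8 and 71.6 FPKM in SSC, 5.86, 4.77 and 9.14 in SSCiPSC and 5.82, 1.63 and 8.36 in fiPSC. Its other locus (chr6:4509423-4537549) gave 15.6, 16.3 and 47.3 FPKM in SSC, 4.27, 4.17 and 8.51 in SSCiPSC and 5.47, 1.79 and 8.56 in fiPSC. In both genes every SSC library was above every iPSC library, SSC replicate 3 stood high and fiPSC replicate 2 stood low, while the other fiPSC libraries lay among or near those of SSCiPSC. Col1a1, which encodes the first and more numerous chain of type I collagen (chr11:94936258-94941124, plus strand), had 11.7, 10.2 and 35.8 FPKM in SSC, 2.06, 2.23 and 5.96 in SSCiPSC and 5.22, 1.40 and 4.78 in fiPSC. Its second locus, covering most of the rest of the gene (chr11:94941233-94952579), gave 12.4, 9.92 and 24.5, then 1.85, 1.95 and 4.87, then 2.6, 1.05 and 3.17 FPKM in the same order, so that these 2 pieces ranked the groups alike against SSC. The third, a locus of 331 bp with no strand at the end of the gene (chr11:94952710-94953040), did not separate them, with 0, 9.99 and 20.9 FPKM in SSC, 0, 0.806 and 3.94 in SSCiPSC and 0.426, 1.28 and 1.12 in fiPSC. Col5a1, a chain of the minor type V collagen that starts fibrils (chr2:27886418-28039205, plus strand), had 22.9, 16.9 and 21.6 FPKM in SSC, 3.07, 2.79 and 3.48 in SSCiPSC and 2.37, 1.60 and 3.16 in fiPSC. It was the steadiest of the group, and the only one of the 5 collagens without a high value in SSC replicate 3.

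Col6a1, a chain of the beaded filaments around cells (chr10:76713184-76721109, minus strand), had the widest span between groups, with 20.3, 35.1 and 104 FPKM in SSC, 1.86, 1.02 and 3.37 in SSCiPSC and 1.67, 1.29 and 4.02 in fiPSC. A second Col6a1 locus (chr10:76708801-76712403) had 24.0, 20.2 and 47.4 FPKM in SSC and 0.763 to 3.03 in iPSC. The third (chr10:76721400-76726018) had 25.6, 29.3 and 63.2 FPKM in SSC and 1.19 to 2.56 in iPSC. Dcn, which encodes the fibril-binding proteoglycan decorin (chr10:97479475-97518122, plus strand), had 21.7, 20.1 and 82.8 FPKM in SSC, 5.18, 2.24 and 6.88 in SSCiPSC and 4.74, 1.68 and 5.86 in fiPSC. For both genes the SSC and iPSC values were far apart and the iPSC groups overlapped. Lum, the neighbour of Dcn that encodes lumican (chr10:97565789-97572704, plus strand), had 0.695, 0.398 and 3.55 FPKM in SSC, 1.83, 0.893 and 1.5 in SSCiPSC and 2.31, 0.487 and 2.87 in fiPSC. The 3 groups thus overlapped for Lum, and its SSC values rest on about 2.81, 4.21 and 11.2 fragments.

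Postn, which encodes the matricellular protein periostin (chr3:54361126-54391031, plus strand), had 7.10, 6.11 and 26.8 FPKM in SSC, 5.58, 2.47 and 5.23 in SSCiPSC and 3.14, 1.19 and 4.24 in fiPSC. Its lowest SSC library was above every iPSC library, but only narrowly. Thy1, a GPI-anchored surface antigen of fibroblasts that spermatogonial stem cells and other cells also display (chr9:44043309-44048581, plus strand), had a higher mean in iPSC, with 0, 2.16 and 0.437 FPKM in SSC, 2.03, 2.19 and 5.05 in SSCiPSC and 6.23, 1.56 and 3.91 in fiPSC. Its SSC values overlapped those of each kind of iPSC, and neither difference passed the test. The value of 0 in SSC replicate 1 allows up to 1.08 FPKM (3 fragments, counting error only). S100a4, a calcium-binding protein also called fibroblast-specific protein (chr3:90603690-90606043, plus strand), had 1.35, 0.516 and 5.18 FPKM in SSC, 2.71, 1.20 and 3.70 in SSCiPSC and 3.39, 0.403 and 3.56 in fiPSC. Each SSC value of S100a4 rests on fewer than 3 fragments, as does that of fiPSC replicate 2, so that a difference from SSC was not detectable at this depth.

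**Figure D1:**
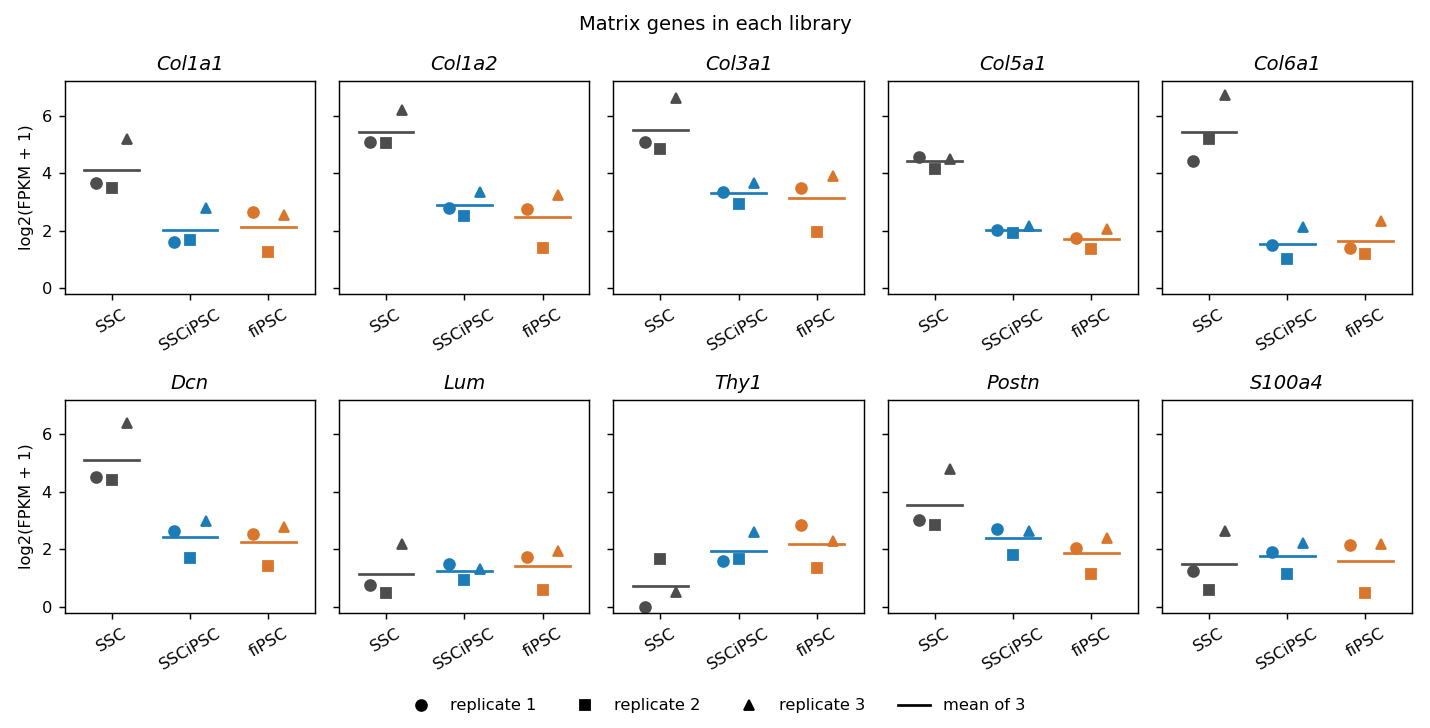
Level of each of the 10 genes in the 9 libraries, as log2(FPKM + 1), with one panel per gene. Circles, squares and triangles are replicates 1, 2 and 3 and the line is the group mean. The SSC points lie above all iPSC points for the 5 collagens, Dcn and Postn, and the square of fiPSC is the lowest iPSC point in 9 of 10 panels.

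Ranked by mean FPKM, Col3a1 (9.14 ± 2.5, SD, n = 3), Col1a2 (6.59 ± 2.28) and Dcn (4.77 ± 2.35) led in SSCiPSC, and the same 3 genes led in fiPSC in that order, with 9.06 ± 5.66, 5.27 ± 3.40 and 4.09 ± 2.16 (SD, n = 3). Lum was last in both, at 1.41 ± 0.473 and 1.89 ± 1.24. No gene in either iPSC group was separated without overlap from the next one in the order. In SSC the order began with Col6a1 (53.0 ± 44.5) and Col3a1 (52.0 ± 38.2) and ended with Thy1 (0.867 ± 1.14), and the only neighbours that did not overlap were Postn (13.3 ± 11.7) and S100a4 (2.35 ± 2.49). The first place of Col6a1 depends on the locus used, as its other loci reached only 47.4 and 63.2 FPKM in SSC replicate 3.

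The comparison of fiPSC with SSCiPSC addresses whether lines of fibroblast origin kept more fibroblast matrix RNA. With limma on log2(FPKM + 1), Benjamini-Hochberg adjusted over 33948 loci, 0 of the 10 genes reached the threshold of 0.05 by adjusted p and 0 by unadjusted p, when 0.0678% of all loci tested did so by the former and 11.7% by the latter. The values of the 2 groups overlapped for all 10 genes, and for 18.6% of the loci tested they did not. The 10 differences (fiPSC minus SSCiPSC, log2 scale) had a median of -0.17, against 0.01 for all loci, with 4 above 0 and 6 below. They ran from -0.53 for Postn (95% interval -1.44 to 0.39, limma adjusted p = 0.643) to 0.21 for Thy1 (-0.80 to 1.23, limma adjusted p = 0.891).

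These intervals are wide, so a difference between the iPSC groups of the size of their own spread was not detectable with 3 libraries each. That of Col1a1 was -0.98 to 1.20 around 0.11, and that of Col1a2 -1.52 to 0.68 around -0.42. The narrowest was that of Col5a1, -0.83 to 0.21 around -0.31. Col6a1 (0.09), Dcn (-0.19), Col3a1 (-0.19), S100a4 (-0.15) and Lum (0.17) were the others. Without fiPSC replicate 2 the median difference of the 10 genes was 0.35, without SSCiPSC replicate 3 it was 0.08, and 8 of the 10 differences turned sign in at least 1 of the fits with a library left out.

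Against SSC, 6 of the 10 genes were lower in SSCiPSC and 0 higher (limma, Benjamini-Hochberg adjusted), when 50.3% of 36544 loci passed, 26.2% as higher and 24.1% as lower. The same 6 were lower in fiPSC and 0 higher, when 51.8% of 38007 loci passed, 28% as higher and 23.7% as lower. These 2 comparisons share the SSC libraries, and each shares an iPSC group with the comparison of the iPSC groups. The median log2 difference of the 10 genes was -2.13 in SSCiPSC and -2.17 in fiPSC, against 0.11 and 0.17 for all loci. For 7 of the 10 genes every iPSC value was below every SSC value in each comparison, as it was for 28.7% and 28.5% of the loci tested. For a single gene, the exact permutation test of 3 libraries against 3 cannot give a two-sided p below 0.1.

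Among the 6, Col6a1 had the largest difference, -3.88 in SSCiPSC (standard error 0.61, limma adjusted p = 0.00236) and -3.78 in fiPSC (standard error 0.62, limma adjusted p = 0.00307). Col5a1 had the smallest error, with -2.38 (standard error 0.20, limma adjusted p = 0.000259) and -2.68 (standard error 0.24, limma adjusted p = 0.000287). The other interstitial chains were close to each other, Col1a2 at -2.55 and -2.97, Col3a1 at -2.19 and -2.37 and Col1a1 at -2.08 and -1.97 in SSCiPSC and fiPSC. Dcn was at -2.66 and -2.86. Without SSC replicate 3, Col6a1 was at -3.24 and -3.15 and Dcn at -2.02 and -2.21. In fiPSC the call of Col1a1 (limma adjusted p = 0.0299) was lost without fiPSC replicate 1, 2 or 3 (0.0524, 0.0886 and 0.0612), and that of Col3a1 (0.0241) without fiPSC replicate 1 or 2 (0.0548 and 0.0613). In SSCiPSC the call of Col1a1 (0.0195) was lost without SSCiPSC replicate 1 or 2 (0.0697 and 0.0718).

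The other 4 genes did not pass, although in fiPSC Postn (0.0301) and Thy1 (0.0447) had a limma adjusted p below the threshold with all 9 libraries in the fit. Postn differed by -1.16 in SSCiPSC (95% interval -2.54 to 0.21, limma adjusted p = 0.137) and by -1.69 in fiPSC (-3.17 to -0.21, limma adjusted p = 0.0584). Thy1 differed by 1.23 (0.02 to 2.44, limma adjusted p = 0.0849) and 1.44 (0.08 to 2.80, limma adjusted p = 0.0737), and passed without SSC replicate 2 in both (0.0209 and 0.0280). Lum differed by 0.10 (-1.04 to 1.25, limma adjusted p = 0.876) and 0.27 (-1.12 to 1.66, limma adjusted p = 0.72).

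**Figure D2:**
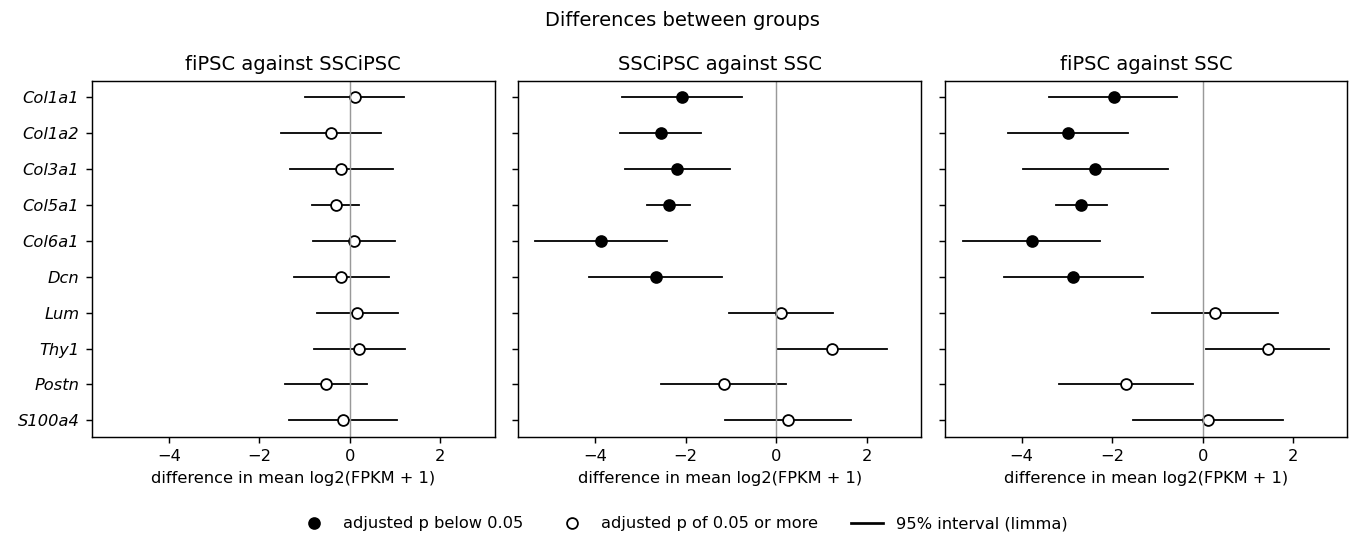
Difference in mean log2(FPKM + 1) for each of the 10 genes in the 3 comparisons, each written as first group minus second, with limma's 95% interval. Filled points have an adjusted p below 0.05. The intervals of fiPSC against SSCiPSC all include 0, and 6 points are filled in each comparison with SSC.

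The proportions of the 10 genes were compared as a description, with no test. As a share of the summed FPKM of the 10 genes, Col6a1 made up 13.4% to 23.3% in SSC and 3.70% to 9.12% in the 6 iPSC libraries. Thy1 made up 0% to 1.44% in SSC and 5.16% to 13.8% in iPSC, Lum 0.264% to 0.794% and 2.68% to 5.23%, and S100a4 0.343% to 1.16% and 2.84% to 7.52%. Postn also took a higher share, 4.05% to 5.99% in SSC and 6.96% to 14.2% in iPSC. Dcn, like Col6a1, took a lower one, 13.4% to 18.5% in SSC and 8.48% to 13.1% in iPSC. The shares of Col1a1 (6.75% to 8.01% in SSC, 5.23% to 11.6% in iPSC) and Col3a1 (18.2% to 21.5% and 20.7% to 25.7%) overlapped. Depth and group cannot be told apart in these shares, and those of Lum, Thy1 and S100a4 in SSC rest on few fragments. The shares of Col6a1, Col1a1 and Col1a2 also depend on which of their loci was used.

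**Figure D3:**
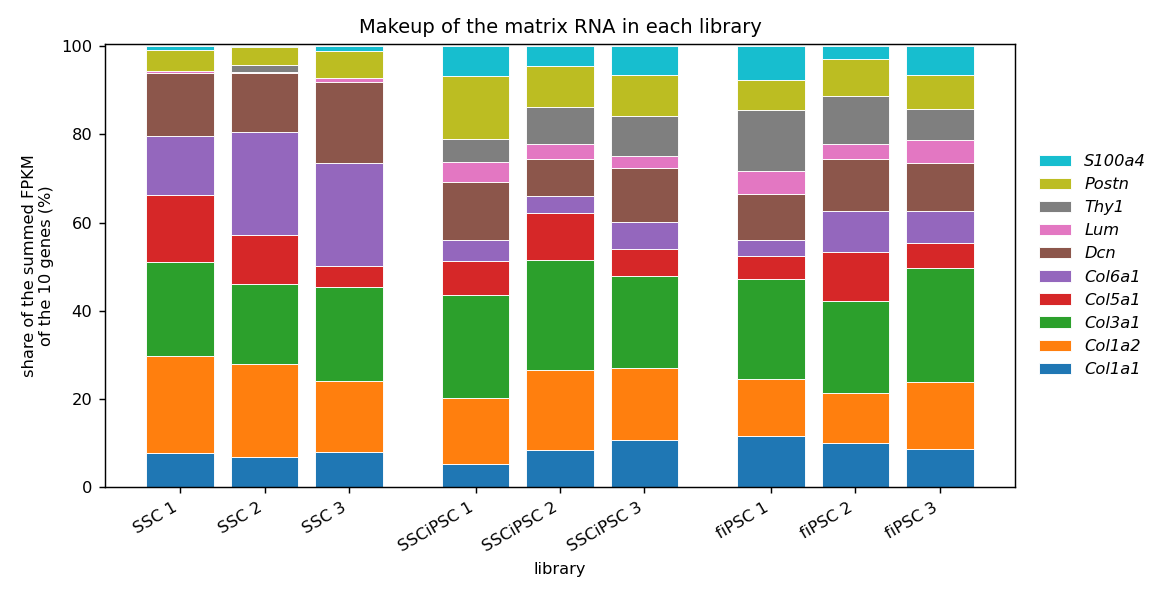
Share of each gene in the summed FPKM of the 10 genes, in percent, 1 bar per library. Col6a1 is at most 9.12% in iPSC and at least 13.4% in SSC, while Thy1 is at least 5.16% in iPSC and at most 1.44% in SSC.

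The level of the 10 genes together varied within each group. Their summed FPKM was 151, 151 and 447 in SSC, 39.4, 26.4 and 55.9 in SSCiPSC and 45.1, 14.2 and 54.8 in fiPSC. SSC replicate 3, the shallowest library, was thus far above the other two, and fiPSC replicate 2, the deepest, was the lowest of the 9. Without Col3a1, the most abundant, the ratio of the highest to the lowest iPSC sum was again 3.94, and without fiPSC replicate 2 it was 2.12. fiPSC replicate 2 was the lowest of the 6 iPSC libraries for 9 of the 10 genes, where 16.5% of the loci tested had their lowest value there. The exception was Col6a1, lowest in SSCiPSC replicate 2 at the locus used here. SSCiPSC replicate 3 was highest for 5 genes and fiPSC replicate 3 for 3.

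The genes varied together. Over the 6 iPSC libraries the Pearson correlation of log2(FPKM + 1) was positive for all 45 pairs of the 10 genes, with a median of 0.804 and a range of 0.420 to 0.974. The 6 points share their libraries, depth and origin, and 1 low library weighs on every pair. The standard deviation of log2(FPKM + 1) over these libraries had a median of 0.62 among the 10 genes, with 0.28 for the steadiest, against 0.32 for the 16070 loci with a mean in the same range (1.65 to 9.10 FPKM).

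Candidates were 10041 other genes on none of the lists looked up here, with a mean of at least 1 FPKM in these libraries. The 6 whose log2 level was most like that of the summed 10 genes (Pearson's r over 6 iPSC libraries) were Anxa3 (0.988), Tiparp (0.978), Ccl7 (0.969), Ccl2 (0.964), Mindy3 (0.959) and Tmod1 (0.957). Among listed genes, Thbs2 (0.958) stood above Tmod1. Ccl2 and Ccl7 encode monocyte-attracting chemokines that lie side by side on chromosome 11. Ccl2 had 2.32, 1.56 and 4.25 FPKM in SSCiPSC and 4.13, 0.754 and 5.20 in fiPSC. Ccl7 had 4.43, 1.73 and 5.08 FPKM in SSCiPSC and 3.60, 0.565 and 4.16 in fiPSC. Their low value in fiPSC replicate 2 follows from how they were chosen. Tiparp and Mindy3 stood at a higher level and had a small span, with 33.7 to 48.9 and 23.7 to 29.4 FPKM, whereas Anxa3 stood at 0.606 to 1.51 FPKM. The locus of Tmod1 has no strand, so its assignment to this gene is less certain.

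The other genes of collagen biology followed the 10 genes across iPSC to differing degrees, and no cutoff was set on r. A gene was tested where it reached 1 FPKM in 3 of the 6 libraries compared, so that one which did so in a single group had to differ in that direction. Against SSC, genes of the lists below are therefore counted only where both groups had a library at 1 FPKM or more, as all 10 matrix genes did. Even so the filter favours genes high in one group, and the counts are a description, to be read beside the 26.2% of all loci tested that were higher and 24.1% lower in SSCiPSC, and 28% and 23.7% in fiPSC. Of 7 further fibrillar chains looked up, 6 had a locus and 3 were tested between fiPSC and SSCiPSC, with 0 passing. Col5a2, which encodes a partner chain of Col5a1 and lies next to Col3a1 on the opposite strand, had 4.05, 3.56 and 5.35 FPKM in SSCiPSC and 3.61, 0.834 and 4.15 in fiPSC, and its r with the summed 10 genes was 0.916. Col2a1 (0.071) and Col5a3 (-0.502) did not follow them. Against SSC, 0 of 2 passed in SSCiPSC and 0 of 2 in fiPSC. The cartilage collagen Col2a1 stayed under 1 FPKM in each SSC library (0.178, 0.544 and 0.682 FPKM) and had 1.78, 1.27 and 2.26 in fiPSC. Of 8 beaded-filament, network and fibril-associated chains, all with a locus, 2 of 2 were lower in SSCiPSC than in SSC, and 4 of 4 in fiPSC. Col6a2 (18.5, 10.6 and 27.9 FPKM in SSC, 0.503 to 2.21 in iPSC) and Col12a1 were among them in both, with Col6a2 at -3.10 and -3.19 (limma adjusted p = 0.000734 and 0.00148). Col8a1 reached 1 FPKM in SSCiPSC but in no SSC library, the values being 0.780, 0.447 and 0.996 FPKM for SSC, then 2.36, 1.59 and 3.61 for SSCiPSC.

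Enzymes that fold collagen did not share the low level of the chains in iPSC. Of 12 genes of collagen folding and modification, 10 had a locus and their summed level was 574, 668 and 639 FPKM in SSC, 777, 684 and 736 in SSCiPSC and 711, 760 and 665 in fiPSC. Serpinh1, the collagen chaperone, had 53.4, 52.6 and 74.8 FPKM in SSC and 54.2 to 86.9 in iPSC. P4hb, a subunit of prolyl 4-hydroxylase and a general protein disulfide isomerase, had 166 to 197 FPKM in SSC and 195 to 221 in iPSC, and Ppib, a proline isomerase, 178 to 217 and 186 to 220. Of the 10 tested against SSC, 1 was higher and 1 lower in each kind of iPSC. The higher one was Colgalt1, which adds galactose to hydroxylysine (1.40 and 1.36, limma adjusted p = 0.00376 and 0.00315), and the lower one Plod2, a lysyl hydroxylase (-1.24 and -0.84, limma adjusted p = 0.00593 and 0.00112). Between fiPSC and SSCiPSC 0 of 10 passed. Across iPSC libraries the r of P4hb with the summed 10 genes was 0.134, that of Ppib -0.240 and that of Serpinh1 -0.663.

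Genes acting outside the cell passed in both directions. Of 11 genes of collagen processing and cross-linking, 10 had a locus, and of the 6 at 1 FPKM or more on both sides 2 were higher and 1 lower in SSCiPSC than in SSC and 2 higher and 2 lower in fiPSC, which says nothing particular to them. Pcolce, which enhances removal of the C-propeptide, was higher, and had 33.6, 39.9 and 49.1 FPKM in SSC and 76.5 to 108 in iPSC (1.32 and 1.04, limma adjusted p = 0.000951 and 0.00223). Bmp1, the C-propeptidase itself, reached 1 FPKM in SSC only (15, 12.5 and 21.5 FPKM in SSC, 0.385 to 0.869 in iPSC). Sparc, a collagen-binding glycoprotein, fell by 1.18 and 1.51 but kept 127 to 176 FPKM in iPSC. Lox, the lysyl oxidase of fibrils, did not pass in any comparison, and its r with the summed 10 genes across iPSC was 0.877, ahead of Pcolce2 (0.374) as the next among these genes. Between fiPSC and SSCiPSC 0 of 7 tested passed.

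Of 19 matrix proteoglycans and glycoproteins, 14 had a locus, and of the 12 counted 3 were higher and 7 lower than in SSC in each kind of iPSC. The 3 higher ones were fibronectin (Fn1, 26.8, 26.9 and 36.2 FPKM in SSC and 118 to 195 in iPSC), fibulin 1 (Fbln1) and versican (Vcan). Among the lower ones were Ccn1 (363, 387 and 521 FPKM in SSC, 13.8 to 29.3 in iPSC), thrombospondin 1 (Thbs1, 247, 218 and 293 FPKM, then 2.52 to 15.8) and fibrillin 1 (Fbn1, 27.1, 23.1 and 49.3 FPKM, then 0.993 to 2.99). Thbs2 (0.958), Tnc (0.874) and Fbln2 (0.848) followed the 10 genes across iPSC, whereas Fn1 (0.159) and Fbln1 (-0.319) did not and Mfap5 (-0.852), a microfibril protein at 1.54 to 2.52 FPKM, ran the other way. Between fiPSC and SSCiPSC 0 of 12 tested passed.

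Of 9 genes of collagen breakdown and its inhibitors, 8 had a locus, and of those counted 4 of 5 were lower than in SSC in SSCiPSC and 5 of 6 in fiPSC, with 0 higher. Timp3, an inhibitor held in the matrix, had 39.6, 37.9 and 48.1 FPKM in SSC and 0.449 to 2.06 in iPSC (-4.07 and -4.38, limma adjusted p = 7.02e-05 and 0.000113). Timp1 had 41.0 to 77.7 FPKM in SSC and 26.0 to 44.2 in iPSC, and the collagenase Mmp14 19.4 to 26.0 and 8.20 to 13.4. Of 6 collagen receptors, all with a locus, 3 of 4 tested were lower in each kind of iPSC, among them Ddr1 (47.7, 47.3 and 36.8 FPKM in SSC, 2.46 to 4.99 in iPSC) and Itgb1 (91.6 to 114, then 34.6 to 73.5). Between fiPSC and SSCiPSC 0 of 5 and 0 of 3 tested passed.

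**Figure D4:**
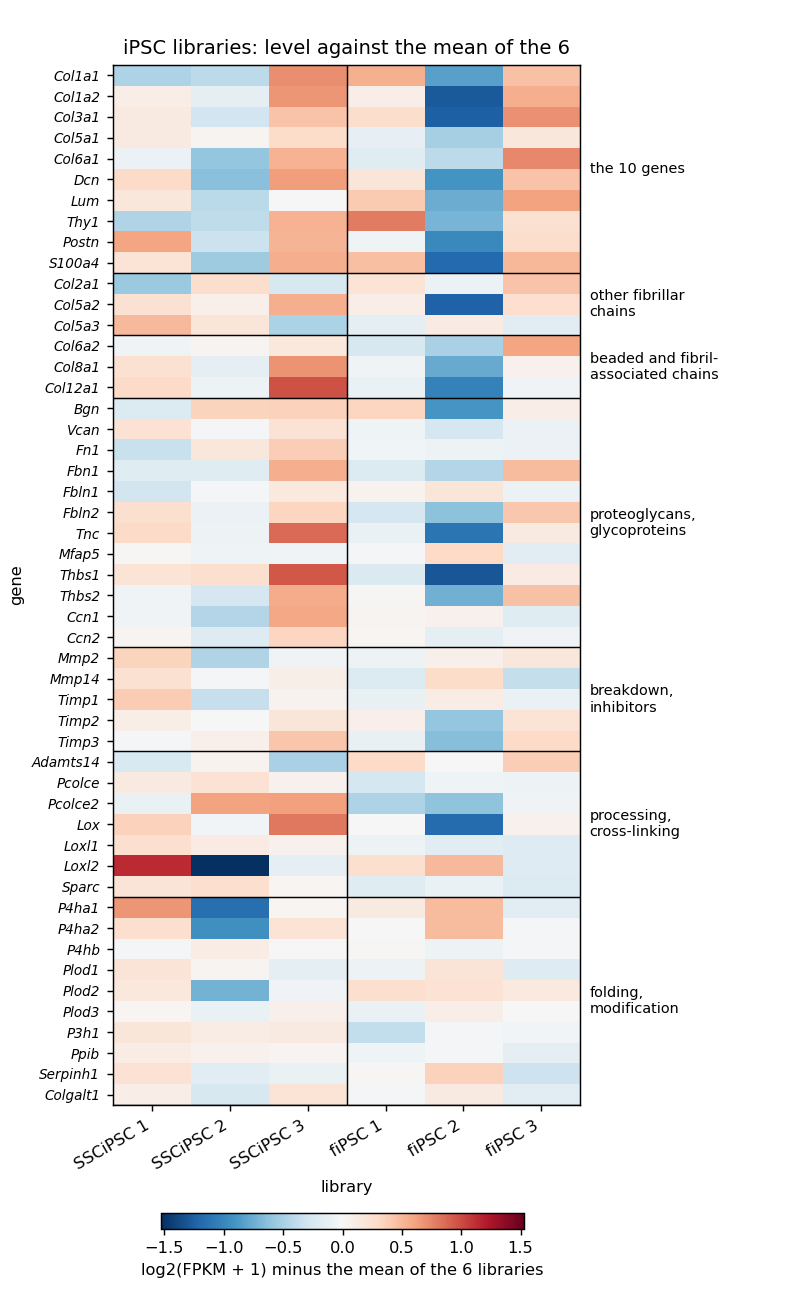
Level of each gene in the 6 iPSC libraries as log2(FPKM + 1) minus the mean of the 6, red above and blue below, for the 10 genes and for listed genes of collagen biology with a mean of at least 1 FPKM in these libraries. The column of fiPSC replicate 2 is blue for all 10 genes and for Col5a2, Tnc, Thbs1 and Lox, and near white for P4hb and Ppib.

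Genes of fibroblast identity other than the 10 were also detected in iPSC, most of them at low level and Vim at a high one. Of 11 listed, 10 had a locus, with sums of 372, 337 and 621 FPKM in SSC, 219, 264 and 225 in SSCiPSC and 126, 126 and 180 in fiPSC. Most of this was Vim, the intermediate filament of mesenchymal cells, with 214, 259 and 218 FPKM in SSCiPSC and 120, 122 and 172 in fiPSC. Its difference of -0.75 between the iPSC groups did not pass (limma adjusted p = 0.217), although the groups did not overlap. Without Vim the sums were 53.9, 46.3 and 113 in SSC, 5.27, 4.96 and 6.24 in SSCiPSC and 6.19, 4.30 and 8.43 in fiPSC, so that SSC replicate 3 and fiPSC replicate 3 were again the highest of their groups and fiPSC replicate 2 the lowest iPSC library. Single genes differed in this. Pdgfrb, another receptor of mesenchymal cells, had 1.54, 1.93 and 1.16 FPKM in SSCiPSC and 1.81, 1.95 and 1.21 in fiPSC, highest in fiPSC replicate 2, and its r with the summed 10 genes was -0.790, while that of Vim was 0.277. No listed gene with a locus was at 0 in all 6 iPSC libraries. Pdgfra, a receptor of mesenchymal cells, had 0.767, 0.457 and 1.23 FPKM in SSCiPSC and 0.758, 0.432 and 1.03 in fiPSC, and Snai2 stayed at or under 0.132. Dpt had a higher mean in fiPSC, with 0, 0.151 and 0.68 FPKM in SSCiPSC and 1.1, 0.354 and 1.9 in fiPSC. These overlapped, and the filter left Dpt out of the test between the iPSC groups. Between fiPSC and SSCiPSC 0 of 3 tested passed, and against SSC 4 of 6 counted were lower in SSCiPSC and 5 of 7 in fiPSC, with 0 higher.

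Lists of testis somatic cells varied otherwise. The sum of the myoid list was 12.9, 11.4 and 9.31 FPKM in SSCiPSC and 12.5, 11.1 and 12.1 in fiPSC, and Acta2 in it followed the 10 genes (r = 0.868) while Cnn1 (0.394) and Des (-0.794) did so less or not at all, with Acta2 at 1.07 FPKM in fiPSC replicate 2 and 3.63 to 6.01 in the others. The Leydig list summed to 8.94 to 10.6 FPKM and the Sertoli list to 52.3 to 96.3 in iPSC, most of it Star and Ctsl. Without Star, whose locus has no strand, the Leydig sum was 0 to 0.358 FPKM in iPSC. Cyp11a1, Cyp17a1, Lhcgr and Nr5a1 of the Leydig genes, Sox9, Dhh and Cst12 of the Sertoli genes and Myh11 and Smoc2 of the myoid genes reached 1 FPKM in SSC only. In the comparison of the iPSC groups 0 of 1 Leydig, 0 of 2 Sertoli and 0 of 3 myoid genes tested passed. Within SSC, the Leydig sum was highest in replicate 3, as the matrix genes were, also without Star (164, 132 and 255 FPKM). The Sertoli and myoid sums were lowest there, but not without their most abundant gene. Without Clu the Sertoli sums were 584, 765 and 652 FPKM, and without Acta2 the myoid sums were 39.9, 37.7 and 44.7. The part of carried-over fibroblasts, of feeder cells or of other testis cells in the matrix RNA was not tested.

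Genes that mark the cells under study set the scale. Of 8 pluripotency genes looked up, 6 had a locus, and the 3 counted were higher than in SSC in each kind of iPSC, while Nanog, Esrrb and Tdgf1 reached 1 FPKM in iPSC only, with sums of 1910, 1990 and 1790 FPKM in SSCiPSC and 1540, 1530 and 1670 in fiPSC. Pou5f1 and Klf4 are also in the cassette, whose RNA cannot be told apart here. fiPSC replicate 2 was lowest in this list by a small margin only, and 0 of 6 passed between fiPSC and SSCiPSC. Of 8 germ line genes, all with a locus, 4 of the 5 counted were lower and 1 higher (Etv5) than in SSC in each kind of iPSC, and 0 of 5 tested passed between the iPSC groups, with Dazl at 34.9, 42.3 and 36.2 FPKM in SSCiPSC and 17.4, 15.3 and 25.8 in fiPSC (limma adjusted p = 0.205).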

How the data were processed

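Per the labels and the methods, the authors extracted total RNA, made stranded libraries (the labels also name ribosomal RNA depletion), trimmed reads with Trimmomatic 0.32, aligned them with TopHat2 2.0.9 and Bowtie2 2.1.0 and assembled and quantified loci with Cufflinks 2.2.1. The deposited table holds FPKM values, 1 per locus and library. The submitters' processing notes name mm9, but the loci have the ends of GRCm38 genes: of those on a strand with both ends within 300 bp of a gene, 2978 had its strand and 59 the opposite one. Of 54914 loci, 1 with a blank value was left out.

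A locus of at least 300 bp was given the gene that holds at least 50% of it. The strand of a locus was inferred from the order of the table, where the start falls back within a chromosome. A locus on a strand had to match the strand of its gene. Where a gene had several loci, those on a strand were taken first, then the highest mean. Gene names printed in the table were not used. Groups were taken from the sample labels. Pairs of groups were tested with limma 3.58.1 in R 4.3.3 on log2(FPKM + 1), with a trend, keeping loci that reached 1 FPKM in 3 or more of the 6 libraries, with Benjamini-Hochberg adjustment (threshold 0.05). This scale understates changes of low genes. In simulated data 80.5% of 200 loci changed 4-fold (mean log2 level above 2) were recovered among 33948 loci for fiPSC against SSCiPSC. For SSCiPSC against SSC 55.5% of 200 were recovered among 36544. These rates do not give the chance of detecting such a change in the matrix genes. The matrix genes varied more over the iPSC libraries than loci of like level (median SD of log2(FPKM + 1) 0.62 against 0.32). The adjusted p also depends on how many loci differ, and in the real data 23 and 18396 loci passed. Depth was estimated from loci of 600 to 6000 bp, and fragment numbers from the longest transcript of a gene. The rest was computed in Python 3.11.15 (pandas 2.3.3, numpy 2.4.6) and plotted with matplotlib 3.10.9.

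The 10 genes and the other lists (15 lists with the 10 genes) were chosen with earlier results of these data known. Named are the 10 genes and listed genes that passed in fiPSC against SSCiPSC or are among the 3 most abundant of a list. The 6 genes outside the lists that were most like the summed 10 are also named. Other listed genes were named after their values were seen. Alternatives tried were 0.1 as pseudocount, no filter or a mean of at least 5 FPKM, quantile or median-ratio scaling, all 9 libraries, a replicate block, the sum of a gene's loci, an overlap of 80% and each library left out.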

Additional observations from a re-analysis of the deposited data

How the results depend on the processing

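Over the alternatives, 0 of the 10 genes passed between fiPSC and SSCiPSC, though with a mean of at least 5 FPKM only 2 of them were tested. The count of all loci past the threshold there (23) was 10 with a mean of at least 5 FPKM, 11 with all 9 libraries and 2 to 10 with a library left out, with fewer samples in the fit. Between SSCiPSC and SSC it moved from 18396 to 10070 with a mean of at least 5 FPKM, which tests fewer loci, and to 11357 to 13901 with a library left out. Between fiPSC and SSC it moved from 19680 to 10528 and to 11300 to 16585. With a library left out, 5 to 7 of the 10 genes passed in SSCiPSC and 4 to 7 in fiPSC against SSC, and the median log2 difference ranged from -2.45 to -1.64 and from -2.77 to -1.67.

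Between fiPSC and SSCiPSC, the difference of Col1a1 turned to -0.02 (limma adjusted p = 0.991) with the sum of its loci and that of Col6a1 to -0.01 (0.996) with quantile normalization. The cause was not tested. With a library left out the differences ranged from -0.14 to 0.55 for Col1a1, -0.80 to 0.11 for Col1a2, -0.58 to 0.39 for Col3a1, -0.25 to 0.38 for Col6a1, -0.56 to 0.22 for Dcn, -0.10 to 0.59 for Lum, -0.13 to 0.62 for Thy1, -0.46 to 0.41 for S100a4 and -0.45 to 0.35 for the median of the 10 genes. Against SSC, Lum ranged from -0.23 to 0.27 in SSCiPSC and -0.06 to 0.69 in fiPSC, and S100a4 from -0.18 to 0.84 and -0.33 to 0.69, while Col6a1 ranged from -4.39 to -3.24 and -4.29 to -3.15 and Dcn from -3.01 to -2.02 and -3.21 to -2.21. With an iPSC library left out, added after seeing the data, the ratio of the highest to the lowest iPSC sum (3.94) was 2.12 to 3.94. Under median-ratio scaling the all-locus median went from 0.11 to 0.31 in SSCiPSC and from 0.17 to 0.36 in fiPSC against SSC, and the 6 genes passed under it as well. The balance of all calls moved with scaling. In SSCiPSC against SSC, 9582 loci were higher and 8814 lower, with 11250 and 7499 under median-ratio scaling and 8861 and 9187 under quantile normalization. In fiPSC against SSC these were 10658 and 9022, then 12528 and 7614, then 9690 and 9925. All 10 genes kept their locus at an overlap of 80%. In fiPSC against SSC, Thy1 (adjusted p = 0.0447) and Postn (0.0301) passed with all 9 libraries in limma.

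The libraries share only a replicate number. Their deviations correlated by -0.236 to 0.0214, and 0, 2 and 0 of 6 libraries correlated best with their own number in the 3 comparisons. With the replicate block 6 loci passed between fiPSC and SSCiPSC, and Postn passed in fiPSC against SSC (adjusted p = 0.0191).

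SSC depth limits the low genes. There 3 fragments would give 1.91 to 6.39 FPKM for S100a4, 0.412 to 1.38 for Thy1 and 0.284 to 0.948 for Lum, so that small differences of these genes from iPSC were not detectable.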

Other observations

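Genes of early germ layer differentiation, looked up as a measure of other differentiated cells in the iPSC cultures, were low in iPSC. Of 9 listed, 8 had a locus, with sums of 42.9, 33.8 and 53.3 FPKM in SSC, 7.53, 7.26 and 7.86 in SSCiPSC and 6.19, 5.59 and 6.72 in fiPSC. Eomes, a regulator of mesendoderm, made up most of the iPSC sums, with 6.03, 5.43 and 6.73 FPKM in SSCiPSC and 4.49, 4.95 and 5.18 in fiPSC. The only gene tested between fiPSC and SSCiPSC was Eomes, which did not pass (log2 difference -0.26, limma adjusted p = 0.558). Against SSC, Eomes was higher in SSCiPSC (0.94, limma adjusted p = 0.0349) but did not pass in fiPSC (0.68, limma adjusted p = 0.0846). T, the other gene counted on both sides, was lower in SSCiPSC (-0.92, limma adjusted p = 0.0258). Gata4, Gata6 and Dab2 reached 1 FPKM in SSC only. Gata4 led the list in SSC with 18.7, 18.1 and 20.2 FPKM and had no more than 0.351 in iPSC. Across the 6 iPSC libraries the r of Eomes with the summed matrix genes was 0.340.

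Some collagen-modifying enzymes varied among the iPSC libraries in another order than the matrix genes, and are named after their values were seen. P4ha1, a catalytic subunit of prolyl 4-hydroxylase, had 53.5, 14.4 and 33.9 FPKM in SSCiPSC and 36.4, 46.7 and 29.2 in fiPSC. Plod2 had 28.7, 15.2 and 24.7 FPKM in SSCiPSC and 28.5 to 30.5 in fiPSC, and the lysyl oxidase-like enzyme Loxl2 had 22.7, 2.74 and 8.70 FPKM in SSCiPSC and 11.8, 14.2 and 8.38 in fiPSC. The Loxl2 values come from a short locus with no strand, so that their assignment is less certain. All 3 were lowest in SSCiPSC replicate 2, as was P4ha2 and as were 23.6% of the loci tested, whereas fiPSC replicate 2, which was lowest for 9 of the 10 matrix genes, was not low for them. Their r with the summed matrix genes was -0.034, 0.135 and 0.012.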
